A study of Mus musculus with 6 samples.

Results

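The interferon regulatory factor genes Irf1, Irf2, Irf3, Irf4, Irf5, Irf7, Irf8 and Irf9 were examined in type-2 innate lymphoid cells (ILC2s) cultured with an agonist of GITR. They were taken by gene name from the deposited table, which held all 8 of them among its 53278 genes. The ILC2s were sorted from visceral adipose tissue of C57BL/6 mice aged 8 weeks that had received 3 injections of 1 µg IL-33, so both groups came from IL-33-activated animals. They were cultured with IL-2 and IL-7, each at 10 ng/mL, and either DTA-1 at 5 µg/mL, an antibody that engages the costimulatory receptor GITR, or its isotype control. The labels give 48 h of culture, and the results text of the study gives a shorter time. Each group had 3 libraries, made from 10 ng of RNA each, and no label says whether they came from separate animals or cultures, so p-values measure the spread between these libraries.

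Interferon regulatory factors (IRFs) are transcription factors that share an amino-terminal DNA-binding domain. IRF3, IRF5 and IRF7 are activated by kinases downstream of nucleic acid sensors and drive interferon genes. IRF9 is the DNA-binding subunit of the complex that carries the type I interferon signal to DNA, IRF1 is an inducible activator and IRF2 its antagonist, and IRF4 and IRF8 are the lymphoid and myeloid members that bind DNA with partners such as BATF and PU.1.

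The total count was 30569351 to 35131329 per library. The library labelled DTA-1 replicate 1 stood nearer to isotype control than to the other DTA-1 libraries: the chi-square of its counts across genes, per degree of freedom, was 10.1 to 11.9 against isotype control and 29.0 and 30.5 against DTA-1 replicates 2 and 3. Each library keeps its label here, and the values of the 8 genes are given both with and without that one. Leaving it out removes the DTA-1 library most like isotype control, which favours small p-values. Calls and p-values without it therefore depend on that choice and are given as description. The ILC2 markers were high in all libraries, with a summed level over 12 genes of 13699.7 to 14373 normalized counts under isotype control and 14626 to 19278 in DTA-1. Il5 had the highest level of them (mean 6699). Without DTA-1 replicate 1, edgeR called 2 of the 12 (adjusted p below 0.05 and 1.5-fold or more), against 0.744% of 14911 genes tested. Normalized counts are CPM after TMM scaling. The B cell genes Ms4a1 and Pax5, the macrophage gene C1qb and the dendritic cell gene Clec9a had 0 counts in all 6 libraries. Other genes of these lists were present, the highest being Cd79b (mean 17.1), Cd68 (6.59) and Xcr1 (46.2). The T cell list summed to 40.2 to 53.6 and 45.9 to 50.9 normalized counts, most of it Cd3g (mean 44.1), with Cd8a at 0. The NK cell and ILC1 list summed to 0.283 to 0.855 and 0.577 to 1.54, and the adipocyte list to at most 0.454. The summed level of 6 fibroblast genes was 2.20 to 8.39 in isotype control and 0 to 3.98 in DTA-1 (0 in DTA-1 replicate 1). Of these 6 genes 2 were called without DTA-1 replicate 1, against the same 0.744% of all genes. The part of fibroblast RNA in the results was not tested.

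The 250 bases before each RefSeq start site of the 8 genes (GRCm38.p6, 11 start sites) were searched for 3 motifs on both strands. These were the GAS element bound by STAT dimers (TTCNNNGAA), an ISRE core bound by IRFs (GAAA, any 2 bases, GAAA) and the NF-κB motif. Irf1, Irf2 and Irf8 held matches. These windows were chosen after the matches were seen, and they are shown because their letters are those of the signalling routes that lie up- and downstream of these genes. Capitals mark the matches.

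Irf1, GAS match starting 90 bases before the start site, chr11:53769914-53769942, plus strand: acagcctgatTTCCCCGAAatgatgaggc
Irf1, NF-κB match starting 13 bases before the start site, chr11:53769991-53770013, plus strand: agtccgggccGGGGAATCCCgct
Irf2, ISRE core and GAS matches starting 241 and 224 bases before the start site, chr8:46739502-46739531, plus strand: gtGAAAATGAAAttgacttTTCCGAGAAat
Irf2, NF-κB match starting 17 bases before the start site, chr8:46739718-46739744, plus strand: cgggggtgggGGGGATTTCCagcctcg
Irf8, both GAS matches starting 171 and 153 bases before the start site, chr8:120736186-120736214, plus strand: tTTCTCGGAAagagagcgcTTCAGAGAAg

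Over all 32851 RefSeq promoter windows of this length, 2.98% held the ISRE core, 7.02% the GAS letters and 7.25% the NF-κB motif. Irf3, Irf4, Irf5, Irf7 and Irf9 held none of these letters in the window. The RefSeq start sites of Irf9 (55603985 and 55604579), Irf7 (141266424, minus strand), Irf2 (46739745) and Irf4 (30749233) lie inside the gene models of the table. The bases before the outermost annotated start of these genes were therefore not all searched. The Irf2 window with the NF-κB match, and the match itself, run past the first base of its gene model, 46739732. The windows of Irf9 and Irf7 held no match, overlap annotated UTR and are not shown. A match is a description of the letters and not of a bound site.

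All 8 genes were expressed in every library, with 461 to 3787 counts, and all 8 passed the filter on low counts. To compare levels between genes, normalized counts were divided by the length of the exons in kb. Irf1 had the highest level per kb, at 26.0 ± 1.24 under isotype control and 25.5 ± 1.18 under DTA-1 (SD, n = 3 each). Irf3 followed with 22.9 ± 0.510 and 22.3 ± 0.600, and Irf5 with 17.7 ± 1.53 and 17.8 ± 1.97. The 6 libraries of each of these 3 genes did not overlap with those of the next gene in the order. Together Irf1, Irf3 and Irf5 made up 27.8%, 24.4% and 19.1% of the summed level of the family with this measure of length.

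The other 5 genes lay lower and closer together, between 3.19 and 10.3 normalized counts per kb. In isotype control Irf9 was at 6.38 ± 0.657, Irf2 at 5.84 ± 0.167, Irf8 at 4.66 ± 0.358, Irf7 at 4.05 ± 0.445 and Irf4 at 3.92 ± 0.626 (SD, n = 3 each). Each overlapped with its neighbour in the order by the mean of the 6 libraries (Irf9, Irf2, Irf7, Irf8, Irf4). The level per kb depends on the length used. Divided by the longest transcript in place of all exons, the isotype control mean was 48.3 for Irf1, 38.8 for Irf3, 10.9 for Irf2 and 9.47 for Irf8, each over 1.5 times its value above. Irf2 stood above Irf9 and Irf8 above Irf7 with that length, while Irf1, Irf3 and Irf5 stayed at the top and Irf4 at the bottom. The summed level of the 8 genes was 89.1 to 93.4 under isotype control, and under DTA-1 it was 88.2, 99.0 and 94.8 (replicates 1, 2 and 3).

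**Figure D1:**
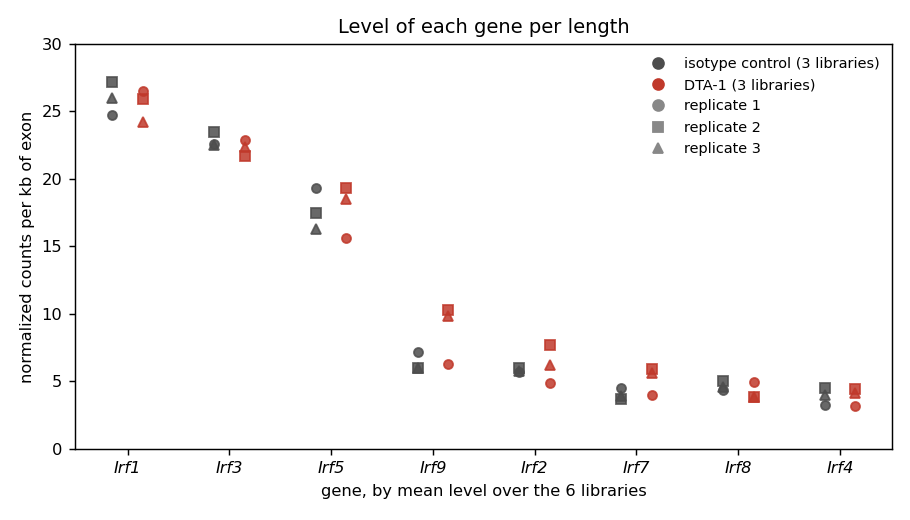
Normalized counts per kb of exon (y axis) of the 8 genes, ordered by their mean over the 6 libraries, with 1 point per library, isotype control in grey and DTA-1 in red. Irf1, Irf3 and Irf5 lie between 15.6 and 27.2, and the other 5 genes between 3.19 and 10.3.

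DTA-1 and isotype control were then compared to ask whether engaging GITR moved any of these genes. A call needed both an adjusted p below 0.05 and 1.5-fold or more between the groups, the limits that the study set for differential expression. With all 6 libraries edgeR called 0 of the 8 genes, as it called 0 of 14361 genes tested (0%). DESeq2's Wald test called 0 of the 8 and 25 genes in all, and limma-trend called 0 of the 8 and 0 in all. At an unadjusted p under 0.05 there was 1 of the 8 genes, Irf9, against 7.22% of all genes. In 0 of the 8 genes did all DTA-1 libraries lie above or below all isotype control libraries, against 11.3% of all genes. Of the 8 genes 4 had a higher and 4 a lower mean estimate with DTA-1, and the median size of their log2 fold change (log2FC, DTA-1 over isotype control) was 0.07, against 0.12 over all genes.

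With DTA-1 replicate 1 left out, 1 of the 8 genes was called by edgeR, Irf9, against 0.744% of 14911 genes tested. Irf2, Irf7, Irf8 and Irf9 had an unadjusted p under 0.05 (4 of 8, against 14.0% of all genes). In 5 of the 8 genes the remaining DTA-1 libraries lay above (Irf2, Irf7 and Irf9) or below (Irf3 and Irf8) all isotype control libraries, against 31.2% of all genes. In bulk RNA, more RNA of a gene per cell and more cells that express it cannot be told apart.

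**Figure D2:**
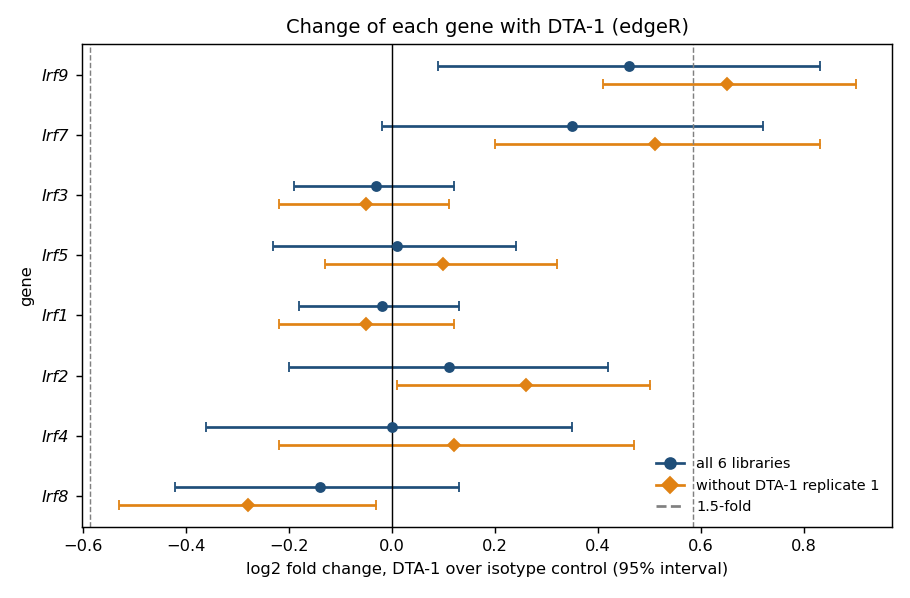
Log2 fold change of DTA-1 over isotype control (x axis) for the 8 genes, from edgeR, with 95% confidence intervals, for all 6 libraries (blue circles) and without DTA-1 replicate 1 (orange diamonds). Dashed lines mark 1.5-fold, and with all 6 libraries the interval reaches past them for Irf7 and Irf9 alone.

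Irf9, the DNA-binding subunit of the type I interferon complex (chromosome 14, 55603571 to 55610030, in GRCm38 as all gene positions here), had the largest fold change of the 8. It had 38.5, 32.3 and 32.4 normalized counts under isotype control and 33.8, 55.3 and 52.9 under DTA-1 replicates 1, 2 and 3. DTA-1 replicates 2 and 3 lay above every isotype control library, and DTA-1 replicate 1 lay among them. With all 6 libraries the log2FC of Irf9 was 0.46 (standard error 0.17, 95% confidence interval 0.09 to 0.83, adjusted p = 0.632 by edgeR). Without DTA-1 replicate 1 Irf9 was called, with a log2FC of 0.65 (standard error 0.11, adjusted p = 0.0161 by edgeR), which is 1.57-fold with an interval of 1.33 to 1.86. Over the 13 alternatives named in the methods its adjusted p ranged from 0.0161 to 0.999. With DTA-1 replicate 1 left out, Irf9 was also called with DESeq2's size factors, total counts, limma-trend and DESeq2's Wald test, with adjusted p values of 0.0156, 0.0285, 0.0137 and 9.85e-06. These fits use the same libraries and are not independent of each other.

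Irf7, an inducible driver of interferon genes that is itself an interferon-responsive gene (chromosome 7, 141262706 to 141266481), had the same pattern over the libraries. It had 17.2, 13.9 and 14.9 normalized counts under isotype control and 14.9, 22.3 and 21.3 under DTA-1 replicates 1, 2 and 3. As for Irf9, DTA-1 replicates 2 and 3 lay above every isotype control library. The log2FC of Irf7 was 0.35 (standard error 0.17, interval −0.02 to 0.72, adjusted p = 0.702 by edgeR). Without DTA-1 replicate 1 it was 0.51 (interval 0.20 to 0.83, adjusted p = 0.128 by edgeR, range 0.128 to 0.999), which was not called. In the combined alternatives without that library the adjusted p of Irf7 was 0.125 with DESeq2's size factors, 0.164 with total counts, 0.114 with limma-trend and 0.0451 with DESeq2's Wald test, where its log2FC of 0.52 was short of 1.5-fold.

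Irf3 and Irf5, which are activated by phosphorylation of a protein that is already present, had overlapping groups with all 6 libraries. Irf3 (chromosome 7, 44997648 to 45002848) had 77.9, 80.7 and 77.5 normalized counts under isotype control and 78.9, 74.8 and 77.0 under DTA-1. DTA-1 replicates 2 and 3 lay below every isotype control library and DTA-1 replicate 1 among them. Irf3 had a log2FC of −0.03 (standard error 0.07), and the 95% confidence interval of its fold change, 0.877 to 1.09, does not reach 1.5-fold in either direction. Irf5 (chromosome 6, 29526625 to 29541871) had 56.1, 50.8 and 47.3 normalized counts under isotype control and 45.2, 56.0 and 53.8 under DTA-1. DTA-1 replicate 1 was the lowest of its 6 libraries, and the groups overlapped. The log2FC of Irf5 was 0.01 (standard error 0.11), with a fold interval of 0.856 to 1.18. The edgeR adjusted p was 0.948 for Irf3 and 0.994 for Irf5. Leaving out DTA-1 replicate 1 gave a log2FC of −0.05 for Irf3 and 0.10 for Irf5, with edgeR adjusted p values of 0.823 and 0.740, the lowest over their alternatives, which reached 1.00.

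Irf1, an activator induced by interferon gamma and by NF-κB (chromosome 11, 53770014 to 53778374), was the most abundant of the 8 genes and carries the GAS and NF-κB letters shown above. It had 98.1, 108 and 104 normalized counts under isotype control and 105, 103 and 96.2 under DTA-1. The libraries of the groups were mixed in order, and its log2FC was −0.02 (standard error 0.07, fold interval 0.881 to 1.10, adjusted p = 0.960 by edgeR). Without DTA-1 replicate 1 it was −0.05 (adjusted p = 0.830 by edgeR, the lowest over its alternatives, which reached 1.00).

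Irf2, which competes with IRF1 for the same DNA element (chromosome 8, 46739732 to 46847458), split the DTA-1 libraries. It had 42.1, 44.5 and 42.8 normalized counts under isotype control and 36.3, 57.1 and 46.2 under DTA-1 replicates 1, 2 and 3, so the DTA-1 libraries held both the lowest and the highest value. The means were 43.2 ± 1.23 and 46.5 ± 10.4 (SD, n = 3 each). For Irf2 the log2FC was 0.11 (standard error 0.14, adjusted p = 0.905 by edgeR). It was 0.26 without DTA-1 replicate 1 (adjusted p = 0.328 by edgeR, range 0.328 to 1.00) and −0.06 without DTA-1 replicate 2.

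**Figure D3:**
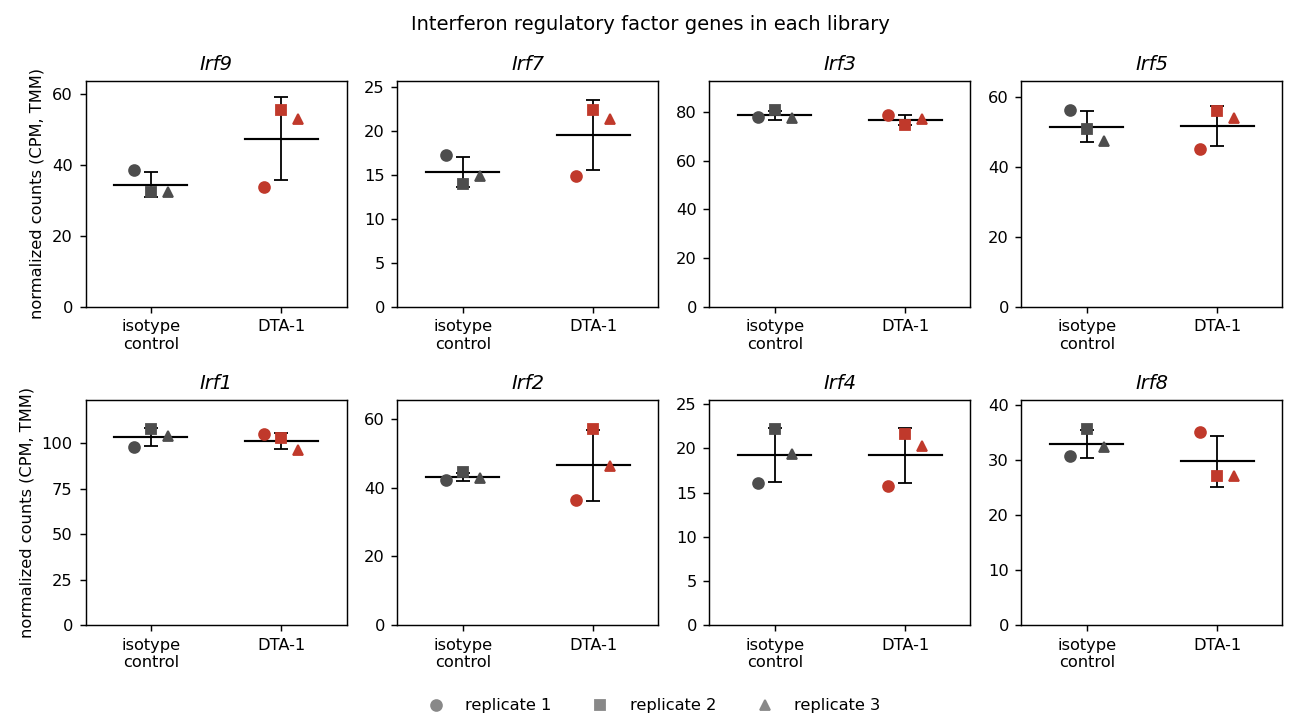
Normalized counts (y axis, from 0) of the 8 genes in each library, with replicates 1, 2 and 3 as circles, squares and triangles, isotype control in grey and DTA-1 in red, and the mean with its SD in black. For Irf9 and Irf7 the square and the triangle of DTA-1 lie above all isotype control points and the circle lies among them, and for Irf8 they lie below.

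Irf4 (chromosome 13, 30749226 to 30766976), which lymphocytes induce on activation and which pairs with BATF, had the lowest level per kb. It had 16.1, 22.2 and 19.4 normalized counts under isotype control and 15.7, 21.6 and 20.3 under DTA-1. Both groups had a mean of 19.2, with an SD of 3.07 and 3.14. Its fold change was 0.998 (interval 0.780 to 1.28, adjusted p = 0.999 by edgeR), and without DTA-1 replicate 1 the log2FC was 0.12 (adjusted p = 0.793 by edgeR, the lowest of its alternatives, which reached 1.00).

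Irf8 (chromosome 8, 120736358 to 120756694), best known as a factor of myeloid and B lineage cells, ran the other way. It had 30.7, 35.6 and 32.3 normalized counts under isotype control and 35.1, 27.1 and 27.1 under DTA-1 replicates 1, 2 and 3. DTA-1 replicates 2 and 3 lay below every isotype control library and DTA-1 replicate 1 lay among them. The log2FC of Irf8 was −0.14 (standard error 0.13, interval −0.42 to 0.13, adjusted p = 0.843 by edgeR). Without DTA-1 replicate 1 it was −0.28 (interval −0.53 to −0.03, adjusted p = 0.299 by edgeR, range 0.299 to 0.999), and it was not called. The summed level of 8 macrophage and monocyte genes was 6.44 to 12.2 normalized counts under isotype control and 8.67 to 11.9 in DTA-1, and that of 6 B cell genes was 16.6 to 17.7 and 17.2 to 18.3, most of it Cd79b (mean 17.1). Of 7 dendritic cell genes, summing to 47.3 to 49.4 and 46.1 to 49.9, nearly all was Xcr1 (mean 46.2). Xcr1 had more normalized counts than Irf8, but these were not divided by length, so the levels are not compared. The part of such cells in the level of Irf8 was not tested.

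Reads of several of these genes lie in overlapping gene models, and the sources used here do not say how such reads were assigned or whether strand was used. Irf8 lies wholly inside Gm20388 on the same strand, which had 65.7, 69.0 and 66.2 normalized counts under isotype control and 68.0, 53.2 and 56.4 under DTA-1, lowest in the same libraries as Irf8. The split of reads between them is uncertain. Irf9 shares 123 bases with Rnf31 on the same strand, and Rnf31 had a log2FC of 0.00 (standard error 0.10). Irf7, Irf3 and Irf5 overlap on the opposite strand with Phrf1, Bcl2l12 and Tnpo3, whose log2FCs were 0.24, −0.07 and 0.00 with all 6 libraries, none of them called.

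Of the 4 tested genes named for their link to IRFs, 1 had a higher and 3 a lower mean with all libraries (median log2FC −0.08). Irf2bp2, which encodes a corepressor that binds IRF2, had 183, 182 and 194 normalized counts under isotype control and 185, 251 and 275 under DTA-1, a log2FC of 0.35 (adjusted p = 0.632 by edgeR). Without DTA-1 replicate 1 it was 0.50 (adjusted p = 0.00575 by edgeR, range 0.00575 to 0.999), short of 1.5-fold. Irf2bpl, its paralog, had means of 92.8 ± 4.26 and 87.2 ± 5.59 (SD, n = 3 each; log2FC −0.09, and −0.08 without DTA-1 replicate 1).

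The genes around the family were read from 9 further lists of its pathway. Of 8 interferon genes, Ifng, Ifnb1 and Ifna4 among them, all had 0 counts in all 6 libraries, which allows up to 3 counts per library, or 0.0848 to 0.0970 normalized counts (counting error only). Of 9 interferon receptor and kinase genes 8 were tested, 4 of them with a higher and 4 with a lower mean, and their median log2FC was 0.01 against −0.01 over all genes. Tyk2, a kinase of the type I receptor, had 136, 141 and 132 normalized counts under isotype control and 141, 158 and 165 under DTA-1 (log2FC 0.18, adjusted p = 0.657 by edgeR, and 0.24 and 0.119 without DTA-1 replicate 1, range 0.119 to 0.999). Its groups met without overlapping. Jak1 had the highest level of the list, at 613 and 692 on average (log2FC 0.18, and 0.24 without DTA-1 replicate 1).

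Of 18 genes of nucleic acid sensing and of the kinases that activate IRFs, 15 were tested and 9 had a higher mean (median log2FC 0.10, none called with or without DTA-1 replicate 1). Traf3, an adaptor on the route to IRF3 and IRF7 that also holds the alternative NF-κB pathway in check, had 47.3, 46.6 and 43.2 normalized counts under isotype control and 46.5, 69.9 and 64.1 under DTA-1. Its log2FC was 0.40 (adjusted p = 0.628 by edgeR), and 0.55 without DTA-1 replicate 1 (adjusted p = 0.0154 by edgeR, range 0.0154 to 0.999), short of 1.5-fold. Ddx58, the RIG-I sensor gene, had means of 133 and 163 (log2FC 0.29, adjusted p = 0.657 by edgeR). With DTA-1 replicate 1 left out Ddx58 had a log2FC of 0.43 (adjusted p = 0.0309 by edgeR, range 0.0309 to 0.999), short of 1.5-fold. Tbk1, the kinase of IRF3, had means of 158 and 156 (log2FC −0.02 with and without that library).

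Among the DNA-binding partners of IRFs 12 of 16 passed the count filter, 7 with a higher and 5 with a lower mean (median 0.03). Stat2, a partner of IRF9 in the type I interferon complex, named here outside the rule, had means of 57.1 ± 4.49 and 60.2 ± 1.95 (SD, n = 3 each; log2FC 0.08, and 0.10 without DTA-1 replicate 1). Junb, a partner of BATF at sites shared with IRF4, was the 1 gene of this list called without DTA-1 replicate 1, against 0.744% of all genes. Junb then rose by a log2FC of 0.75 (adjusted p = 0.000610 by edgeR, range 0.000610 to 0.999), against 0.54 with all libraries (adjusted p = 0.627 by edgeR). Spi1, which encodes PU.1, the partner of IRF4 and IRF8 in myeloid and B cells, had at most 15 counts.

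Of the 5 NF-κB subunit genes 4 had a higher mean, and Relb and Nfkb2 rose without DTA-1 replicate 1. Relb had 43.5, 39.9 and 35.1 normalized counts under isotype control and 39.4, 85.1 and 85.5 under DTA-1, the same split of libraries as Irf9. Relb had a log2FC of 0.83 with all libraries (adjusted p = 0.627 by edgeR) and 1.11 without DTA-1 replicate 1 (adjusted p = 0.000610 by edgeR, range 0.000610 to 0.999). Nfkb2, whose product p52 pairs with RelB, had 115, 103 and 115 normalized counts under isotype control and 108, 307 and 315 under DTA-1. The log2FC of Nfkb2 was 1.13 with all libraries (adjusted p = 0.678 by edgeR) and 1.49 without DTA-1 replicate 1 (adjusted p = 1.34e-05 by edgeR, the lowest over its alternatives, which reached 0.999). Nfkb1 had means of 395 and 316 and was not called, with a log2FC of −0.32 with all libraries (adjusted p = 0.657 by edgeR) and −0.54 without DTA-1 replicate 1 (adjusted p = 0.00162 by edgeR, range 0.00162 to 0.999).

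The response genes were read last. Of 26 genes of the antiviral interferon response 19 were tested, 12 with a higher and 7 with a lower mean (median log2FC 0.10). With 5 libraries, DTA-1 replicate 1 left out, 22 were tested, 15 with a higher and 7 with a lower mean. Their median log2FC was then 0.24, against −0.02 over all genes. The filter asks for enough counts in as many libraries as the smaller group holds. Genes high in the remaining DTA-1 libraries alone could therefore enter, and the number with a lower mean stayed at 7. The 15 higher means and this median can thus in part come from the filter, and they are not read as a shift of the list. Of these 22 genes 2 were called, Oas3 and Rtp4, both higher, against 0.744% of all genes. Oas3, an interferon-induced sensor of double-stranded RNA, had 14.6, 15.2 and 14.6 normalized counts under isotype control and 22.1, 24.4 and 26.8 under DTA-1. Unlike Irf9 and Irf7, it was above all isotype control libraries in DTA-1 replicate 1 too. Its log2FC was 0.72 (standard error 0.12, adjusted p = 0.452 by edgeR) and 0.79 without that library (adjusted p = 0.0136 by edgeR, in a range of 0.00147 to 0.997). The lowest adjusted p of Oas3 came from an alternative that kept DTA-1 replicate 1. Rtp4 had 0.989, 0.741 and 0.567 normalized counts under isotype control and 0.162, 3.62 and 3.86 under DTA-1, with an edgeR adjusted p of 0.688, or 0.0140 without DTA-1 replicate 1 (range 0.0140 to 0.999). Cmpk2, a further gene of this list, had means of 5.98 and 2.87 (log2FC −1.06, adjusted p = 0.632 by edgeR, and −0.74 and 0.366 without DTA-1 replicate 1, range 0.352 to 0.999), and Ifi35, the most abundant, had 122 in both groups.

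Of 24 genes of the interferon gamma and IRF1 response 20 were tested, 11 with a higher and 9 with a lower mean (median 0.02). Tapbp, which loads peptides on MHC class I, had 588, 574 and 557 normalized counts under isotype control and 589.6, 751 and 724 under DTA-1 (log2FC 0.26, adjusted p = 0.627 by edgeR). With DTA-1 replicate 1 left out Tapbp had a log2FC of 0.36 (adjusted p = 0.00960 by edgeR, range 0.00960 to 0.999), short of 1.5-fold. B2m and H2-D1, which encode chains of MHC class I, had log2FCs of 0.16 and 0.06, and of 0.21 and 0.12 without that library. Cd274, which encodes PD-L1, rose without DTA-1 replicate 1 (log2FC 0.79, adjusted p = 0.0259 by edgeR, range 0.0259 to 0.999) and had 0.51 with all libraries (adjusted p = 0.702 by edgeR). Of 10 lymphocyte genes linked to IRF4, 8 were tested and 5 had a higher mean (median 0.21). Bhlhe40, a transcription factor of activated lymphocytes, rose without DTA-1 replicate 1, by a log2FC of 0.82 (adjusted p = 0.000204 by edgeR, range 0.000204 to 0.999), against 0.61 with all libraries (adjusted p = 0.627 by edgeR). Myc had means of 132 and 151, with all DTA-1 libraries above isotype control (log2FC 0.19, adjusted p = 0.632 by edgeR, and 0.23 and 0.151 without DTA-1 replicate 1, range 0.151 to 0.999). Of 9 genes that restrain interferon receptor signalling all were tested, 3 with a higher and 6 with a lower mean (median −0.05), and none was called in either comparison. Among them Ptpn2, a phosphatase of JAK1, had means of 92.9 and 79.7 (log2FC −0.22, adjusted p = 0.657 by edgeR, and −0.31 and 0.117 without DTA-1 replicate 1, range 0.117 to 0.999), and Cish had 581 and 626 (log2FC 0.11, and 0.17 without that library).

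**Figure D4:**
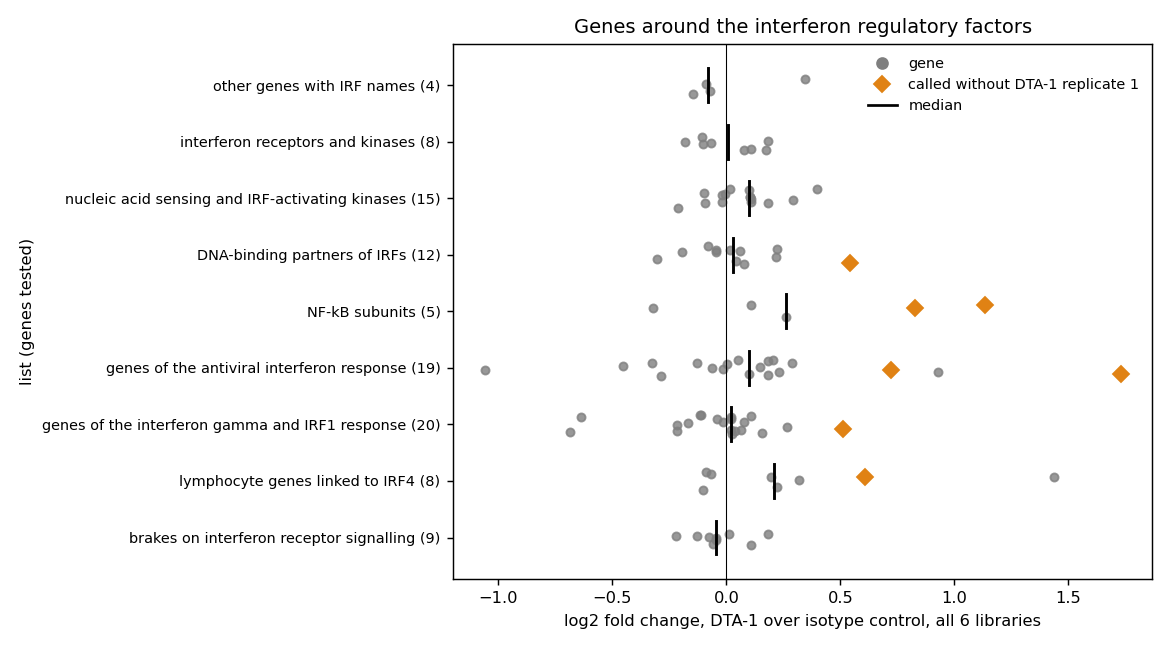
Log2 fold change of DTA-1 over isotype control with all 6 libraries (x axis) for each tested gene of 9 lists (y axis, number of genes tested in brackets), with the median as a black line. Orange diamonds are genes called without DTA-1 replicate 1, and the medians lie between −0.08 and 0.26.

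The genes most like Irf9 and Irf7 over the 6 libraries were found among 8715 genes with a mean of at least 10 normalized counts, by Pearson r of log2 values. For Irf9 they were Casp8, Ass1 and Tnip1 (r = 0.996, 0.996 and 0.995), and for Irf7 Isg20, Tubb5 and Acot7 (r = 0.997, 0.994 and 0.993). An r over 0.9 was reached by 358 genes for Irf9 and 326 for Irf7, so these are the nearest of many genes that split the 6 libraries alike. Casp8 had 443, 425 and 429.6 normalized counts under isotype control and 433, 498 and 493 under DTA-1, and Isg20 had 44.2, 38.5 and 40.1 and then 40.8, 50.0 and 49.0. In both, DTA-1 replicate 1 lay among the isotype control libraries.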

How the data were processed

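The authors deposited expected counts (estimates of the reads of each gene, not normalized) for 53278 genes and 6 libraries, and 81.1% of the values were whole within 0.001. The submitters' processing notes name bcl2fastq 2.17.1.14, STAR 2.5.3a, Partek and the build mm10, and the annotation release is not given in the sources used here. The end of each gene in the table lies 1 base past that of GENCODE release M21, so ends were reduced by 1. Of 49721 shared symbols 47741 then had the same start and end. Exon lengths are the union of GENCODE exons, and promoter sequences are from RefSeq.

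Counts were rounded and fitted on the whole table with edgeR 4.0.16 in R 4.3.3 (filterByExpr, TMM, robust quasi-likelihood F test, no covariate, Benjamini-Hochberg adjustment over 14361 genes). Standard errors come from the log2 fold change and F. The 13 alternatives were DESeq2's size factors, total counts, the Wald test of DESeq2 1.42.0, limma-trend (limma 3.58.1), no filter, the replicate number as a block, a minimum of 10 counts per library, and each of the 6 libraries left out. The procedure was run on simulated counts in which all DTA-1 libraries changed alike. It was therefore not tested on a library such as DTA-1 replicate 1. Plots were drawn with matplotlib 3.10.9.

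The members, lists and tests were chosen with earlier results of these data known. Genes named were all members, the 2 genes of each list with the smallest p and the 1 with the highest level, and genes of a list called without DTA-1 replicate 1. Stat2 and the overlapping genes were added after their values were seen. Some genes that the rule names are not reported here. No protein sequence was used here.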

Additional observations from a re-analysis of the deposited data

How the results depend on the processing

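The count of called genes was 0 with all 6 libraries, 25 with DESeq2's Wald test, 2 without the filter on low counts, 1 with the replicate number as a block and 0 to 111 with each library left out, the 111 without DTA-1 replicate 1. The count of called IRF genes was 0 under the alternatives that keep DTA-1 replicate 1 and 1 under those that leave it out (leaving out each library, 0 to 1). The count at an unadjusted p under 0.05 was 1 (7.22% of all genes), and 2 with DESeq2's Wald test and without the filter. It was 0 to 4 with each library left out, the 4 without DTA-1 replicate 1, where 14.0% of all genes passed. The count of IRF genes whose groups did not overlap was 0, against 11.3% of all genes, and 0 to 5 with each library left out. The 5 came without DTA-1 replicate 1, where 31.2% of all genes did not overlap. With fewer libraries groups overlap less often, and the share over all genes was not computed for the other libraries left out. The range is therefore not read as a result about the IRF genes.

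The log2 fold changes of Irf3, Irf7, Irf8 and Irf9 kept their sign under all 13 alternatives. Those of Irf1, Irf2, Irf4 and Irf5 did not. With each library left out Irf1 ranged from −0.056 to 0.012, Irf2 from −0.061 to 0.258, Irf4 from −0.112 to 0.124 and Irf5 from −0.049 to 0.095. Irf4 was at 0.001 with DESeq2's size factors and with its Wald test, and Irf5 at −0.031 with total counts. Same-numbered libraries did not deviate together (r = −0.007, −0.003 and 0.015), so the numbers were not read as pairs, and with the replicate block Irf9 was at 0.436. The alternatives that combine leaving out DTA-1 replicate 1 with another tool or scaling were chosen after seeing the data.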
